A study of Mus musculus with 6 samples.

Results

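The nuclear genes that copy and read mitochondrial DNA were described in mature mouse oocytes. They comprise 10 members, chosen by gene symbol among the 60193 listed genes, of which 53700 have Ensembl identifiers and 6493 are loci assembled from the reads. The members are *Polg*, *Polg2*, *Twnk* and *Ssbp1* for replication, and *Tfam*, *Polrmt* and *Tfb2m* for transcription and its start. The others are *Tfb1m* for methylation of the small mitochondrial rRNA, *Tefm* for elongation, and *Lrpprc* for the stability of the transcripts. Each member was found once by its symbol, and 9 of the 10 reached an average FPKM of 1 across both groups and were tested. *Tefm* lay below that level and was left out of the test across genes.

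The study compared oocytes matured in vitro (IVM) with oocytes matured in vivo (IVO) by RNA-seq, with 3 samples in each group. Each sample pooled 20 metaphase II oocytes from 3 ICR mice aged 42 to 45 weeks, an outbred stock near the end of its reproductive lifespan, and all mice were primed with PMSG. The IVM oocytes were denuded at the germinal vesicle stage and cultured in M16 medium for 12 h. The IVO oocytes were taken from the oviduct ampullae 14 h after hCG, and their cumulus cells were removed with hyaluronidase. The groups therefore also differ in the presence of cumulus cells during maturation, in hCG and in hyaluronidase, and these cannot be told apart. The Methods call the samples biological replicates, and no younger mice were among them.

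Mitochondrial DNA is a small circular genome that is copied by its own polymerase and helicase, independently of the nuclear genome. A single-subunit RNA polymerase reads it from promoters to which TFAM and TFB2M guide it, and the long transcripts are then cut, polyadenylated and kept stable by RNA-binding proteins such as LRPPRC. A mature oocyte holds more mitochondrial DNA than almost any other cell, and its nucleus is transcriptionally silent.

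From the steps between low FPKM values, the IVM libraries were inferred to hold 16500000 to 19300000 fragments and the IVO libraries 17800000 to 18100000, and the mean fragment length was 206 to 218 bases in IVM and 249 to 263 bases in IVO. All 12 oocyte markers were detected, with a summed FPKM of 27110 to 33532 in IVM and 25380 to 29813 in IVO. Of them 4 were DEGs (defined below) lower in IVO and 0 higher, against 17.9% and 0.606% of all tested genes. Named after their values were seen, these were *Zp2* (means 562 and 39.9 FPKM), *Zp3* (602 and 62.7), *Zp1* (189 and 33.0) and *Nlrp5* (140 and 35.7). The log2FC was below 0 for 11 of the 12, with a median of −0.85. The 13 cumulus and granulosa markers summed to 62.1 to 64.7 FPKM in IVM and 43.9 to 53.5 in IVO. Nearly all of it came from *Nr5a2*, *Cyp19a1* and *Fshr*. Of these only *Nr5a2* was lower in every IVO sample, at means of 34.0 and 15.9 FPKM. *Cyp19a1* (means 17.2 and 19.8) and *Fshr* (11.1 and 11.7) overlapped between the groups. Named after their values were seen, *Has2*, *Ptx3* and *Tnfaip6* were higher in every IVO sample. They were at 0.04 to 0.14, 0 to 0.03 and 0 to 0.14 FPKM in IVM and 0.17 to 0.37, 0.07 to 0.17 and 0.34 to 0.49 in IVO. The other markers overlapped, and *Amh* was at 0 in all samples. The 5 oviduct markers summed to 2.93 to 3.16 FPKM in IVM and 3.26 to 5.71 in IVO with *Pax8* at 0. Most of each sum came from *Epcam*, at 2.72, 2.88 and 2.69 FPKM in IVM and 2.87, 4.1 and 5.4 in IVO, which overlapped. Of this list only *Krt8*, named after its values were seen, was apart. It was lower in IVO, at 0.17, 0.15 and 0.18 FPKM in IVM and 0, 0 and 0.13 in IVO. The 6 blood markers summed to 0 to 1.04 FPKM in IVM and 0.01 to 5.82 in IVO with *Alas2* at 0. The part of other cells, of fragment length and of poly(A) tail length in the results below was not tested. In pooled oocytes, fewer cells of a type and less RNA per cell cannot be told apart.

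The sequence upstream of *Lrpprc* is shown first because *Lrpprc* was the only member past the thresholds. It is the 100 bases before the start of the canonical transcript in GRCm39, 5′ to 3′ on the strand of the gene, at chr17:85098280-85098379 on the minus strand.

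*Lrpprc*: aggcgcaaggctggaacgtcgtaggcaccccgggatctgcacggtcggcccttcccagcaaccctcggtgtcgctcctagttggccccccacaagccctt

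NRF1 and GABP, also called NRF2, are textbook activators of this machinery, and their core letters were searched on both strands in the 250 bases upstream of each canonical start. The letters CCGGAAG of GABP were present upstream of 4 of the 10 members, against 6.89% of 21757 protein-coding promoters and 9.89% of the 10330 whose genes were tested. The letters GCGCANGCG of NRF1 were upstream of 0 of the 10, against 5.57% and 8.12%. The 4 windows with the GABP letters are shown on the strand of each gene, with the match in capitals and 10 bases on each side. *Polg2* is at chr11:106670376-106670402 (minus strand), *Twnk* at chr19:44994877-44994903 (plus), *Polrmt* at chr10:79582442-79582468 (minus) and *Ssbp1* at chr6:40448345-40448371 (plus).

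*Polg2*: gggtgacgctCTTCCGGgggcgtggtc

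*Twnk*: taaccggtgaCTTCCGGttccggggtt

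*Polrmt*: cctaagagcgCTTCCGGcagtcgcaga

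*Ssbp1*: gctccgtgcgCCGGAAGcgagccgctg

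The match started 28 bases before the start of *Polg2*, 50 before *Twnk*, 38 before *Polrmt* and 27 before *Ssbp1*, and it was in the reverse orientation in the first 3. Part of these stretches lies in annotated exons of other transcripts of the same gene. Of the last 100 bases before the canonical start, these exons cover all 100 for *Tfb1m* and *Tfb2m* and 96 for *Ssbp1*. They cover 22 for *Twnk*, 20 for *Polg2* and 0 for the other members. For *Tfb1m*, *Tfb2m* and *Ssbp1* the search therefore does not describe the sequence before their other starts. The same holds for *Twnk*, whose annotated gene begins at chr19:44994102, upstream of the bases searched. A match is a description of letters and no measurement of binding.

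In oocytes matured in vivo, 1 of the 9 tested members was lower than in oocytes matured in vitro, and none was higher. The one that fell was *Lrpprc*, to 0.309 of its IVM level. A DEG was a gene with |log2FC| ≥ 1 and a Benjamini-Hochberg adjusted p under 0.05 by limma on log2(FPKM + 1), a scale on which changes at low FPKM come out too small. Of all 18818 tested genes, 17.9% were DEGs with lower and 0.606% DEGs with higher FPKM in IVO. By the adjusted p alone, again 1 member was lower and 0 were higher, against 21.5% and 1.87% of all tested genes. At an unadjusted p under 0.05 the members numbered 4 lower and 0 higher, against 31.4% and 5.56% of all tested genes. A count of 1 in 9 is no larger than the share of all genes that fell. The 4 of 9 at an unadjusted p lie above their share of 31.4%, but with the median-ratio scaling described below they were 1 lower and 3 higher. The share of all tested genes at an unadjusted p was not computed with that scaling, so the 1 and 3 have no share to be read against. These counts are therefore no result about the machinery as a group.

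The 3 IVM and 3 IVO values did not overlap for 4 members. *Lrpprc* and *Polrmt* were lower in IVO, where 32.6% of all tested genes were apart in that direction, and *Tfb2m* and *Ssbp1* were higher, where 9.62% were. The log2FC of the 9 tested members ranged from −1.67 to 0.62 with a median of −0.66, and the median of all tested genes was −0.30. The median of the members is the value of *Polg2*, which averaged 1.503 FPKM in IVM and 0.553 in IVO, and it turned to 0.19 over the members with a mean FPKM of at least 5 and came to −0.12 with quantile normalization. The deposited FPKM thus placed the typical gene lower in IVO, and scaling each library to its median ratio to the others moved the median of all tested genes to −0.04 and that of the members to −0.50. After this scaling 1 member was lower (*Lrpprc*) and 1 higher (*Tfb2m*) by the adjusted p, against 13.2% and 7.14% of all tested genes. Each tested member is therefore also given with this scaling below.

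**Figure D1:**
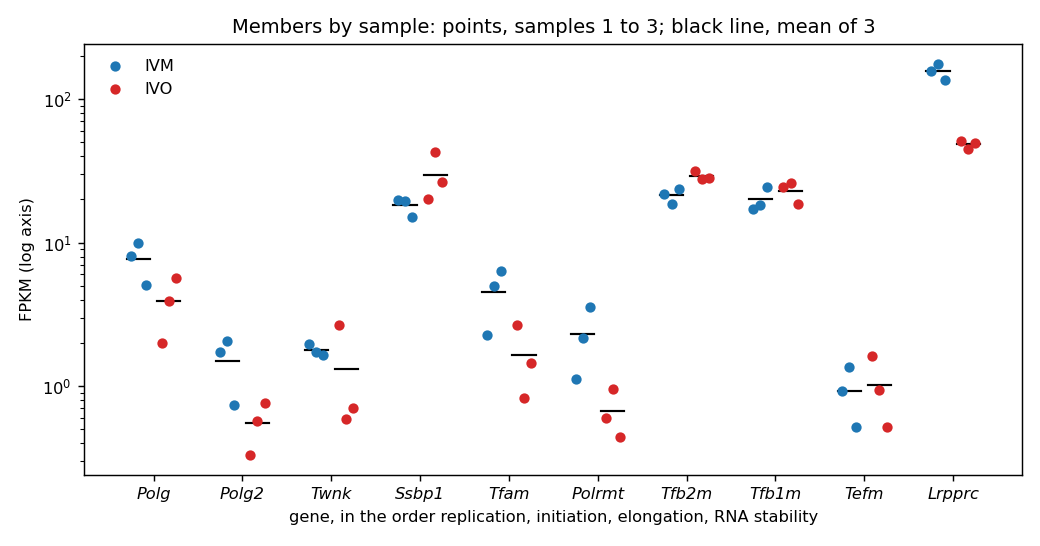
FPKM of the 10 members on a log axis in the 3 IVM (blue) and 3 IVO (red) samples, with the mean of each group as a black line. The *Lrpprc* points lie at 135 to 177 FPKM in IVM and 44.6 to 51.4 in IVO, while the points of *Polg*, *Polg2*, *Twnk*, *Tfam*, *Tfb1m* and *Tefm* overlap between the groups.

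*Lrpprc* (ENSMUSG00000024120, chr17:85012670-85098279 in GRCm39) encodes the leucine-rich pentatricopeptide-repeat protein that binds mitochondrial mRNAs, keeps them from decay and promotes their polyadenylation. Its FPKM was 158.03, 177.14 and 135.22 in IVM samples 1 to 3 and 51.43, 44.63 and 49.24 in IVO samples 1 to 3. Every IVM value was above every IVO value, and the IVO samples lay close together. The IVM mean was 157 ± 21.0 (SD, n = 3) and the IVO mean 48.4 ± 3.47 (SD, n = 3), and the log2FC was −1.67 (SE 0.18, limma adjusted p = 0.0019, 95% confidence interval −2.09 to −1.25). With median-ratio scaling the log2FC was −1.35 (limma adjusted p = 0.0076), so the fall was larger than that of the typical gene under both scalings. Between 3293 and 14318 fragments lay behind each value. Of 4 other rows annotated with the same protein, *1700030C10Rik* and *Gm28503* were at 0 to 0.64 FPKM. The others were the processed pseudogene *Gm48031*, at 0, 7.91 and 8.83 FPKM in IVM and 69.59, 8.27 and 0 in IVO, and the lncRNA *Gm49371*, at 6.33 to 13.22 FPKM. *Gm48031* was above *Lrpprc* itself in IVO sample 1 and below it in the other samples. How fragments were shared among these rows was not tested.

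The replication enzymes were low in both groups. *Polg* (ENSMUSG00000039176, chr7:79095974-79116110) encodes the catalytic subunit of DNA polymerase gamma, the polymerase that copies mitochondrial DNA. Its FPKM was 8.05, 10 and 5.08 in IVM and 2.01, 3.95 and 5.71 in IVO. IVO sample 3 lay above IVM sample 3, so the groups overlapped. The log2FC was −0.87 (SE 0.36, limma adjusted p = 0.132), and −0.60 with median-ratio scaling (limma adjusted p = 0.297).

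*Polg2* (ENSMUSG00000020718, chr11:106658823-106670384) encodes the accessory subunit that holds the polymerase on its template. Its FPKM was 1.72, 2.05 and 0.74 in IVM and 0.33, 0.57 and 0.76 in IVO. As for *Polg*, IVM sample 2 was the highest of all and IVO sample 1 the lowest, and IVO sample 3 lay just above IVM sample 3. The log2FC was −0.66 (SE 0.31, limma adjusted p = 0.175), and −0.50 with median-ratio scaling (limma adjusted p = 0.272). These values rest on 7 to 51 fragments, and the 7 of IVO sample 1 have an exact Poisson 95% interval of 2.81 to 14.4, which covers counting error only.

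*Twnk* (ENSMUSG00000025209, chr19:44994102-45001204) encodes Twinkle, the helicase that opens the double strand ahead of the polymerase. Its FPKM was 1.96, 1.72 and 1.64 in IVM and 2.65, 0.59 and 0.70 in IVO. The IVM samples lay close together, and the IVO samples held both the highest value and the lowest, with 155 fragments in sample 1 against 34 and 41. The log2FC was −0.37 (SE 0.37, limma adjusted p = 0.513), and −0.19 with median-ratio scaling (limma adjusted p = 0.729). It was −0.75 as deposited without IVO sample 1, and just above 0, at 0.0827, with quantile normalization.

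*Ssbp1* (ENSMUSG00000029911, chr6:40448286-40524298) encodes the single-stranded DNA-binding protein that coats the displaced strand. Its FPKM was 19.87, 19.66 and 15.16 in IVM and 20.23, 42.56 and 26.31 in IVO. All IVO values were above all IVM values, but IVO sample 1 lay close to IVM sample 1. The means were 18.2 ± 2.66 (SD, n = 3) and 29.7 ± 11.5 (SD, n = 3). The log2FC was 0.62 (SE 0.30, limma adjusted p = 0.177), and 0.93 with median-ratio scaling (limma adjusted p = 0.0766). It did not pass the threshold under either scaling.

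Of the genes for transcription, *Tfam* (ENSMUSG00000003923, chr10:71061287-71074110) encodes the protein that both bends promoter DNA to start transcription and packs the genome into nucleoids. Its FPKM was 2.27, 4.97 and 6.37 in IVM and 2.65, 0.82 and 1.45 in IVO. The groups overlapped because IVM sample 1 was below IVO sample 1. The means were 4.54 ± 2.08 (SD, n = 3) and 1.64 ± 0.930 (SD, n = 3), and the log2FC was −1.05 (SE 0.40, limma adjusted p = 0.10, 95% confidence interval −1.98 to −0.12). It did not pass the threshold over all genes, and with median-ratio scaling the log2FC was −0.82 (limma adjusted p = 0.161).

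*Polrmt* (ENSMUSG00000020329, chr10:79571957-79582420) encodes the mitochondrial RNA polymerase, which also lays down replication primers. Its FPKM was 1.13, 2.18 and 3.57 in IVM and 0.60, 0.96 and 0.44 in IVO. All IVO values were below all IVM values as deposited, but not after median-ratio scaling, where IVO sample 2 (1.06 scaled FPKM) was above IVM sample 1 (0.987). The log2FC was −0.93 (SE 0.34, limma adjusted p = 0.0947), and −0.75 with median-ratio scaling (limma adjusted p = 0.141). Without IVM sample 1 the log2FC was −1.21 and the limma adjusted p = 0.0464, so 1 library decided on which side of the thresholds it fell. The values rest on 28 to 242 fragments.

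*Tfb2m* (ENSMUSG00000026492, chr1:179355610-179374548) encodes the factor that helps the polymerase melt the promoter. Its FPKM was 21.81, 18.61 and 23.85 in IVM and 31.74, 27.59 and 28.13 in IVO. All IVO values were above all IVM values, with means of 21.4 ± 2.64 (SD, n = 3) and 29.2 ± 2.26 (SD, n = 3). The log2FC was 0.43 (SE 0.19, limma adjusted p = 0.144) as deposited. With median-ratio scaling it was 0.74 (SE 0.17, limma adjusted p = 0.0284, 95% confidence interval 0.34 to 1.14), and with the trend over gene length removed it was 0.63 (limma adjusted p = 0.0417). The call therefore depended on the scaling, and with median-ratio scaling it was lost when any 1 sample other than IVM sample 3 was left out (limma adjusted p 0.0615 to 0.0903).

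*Tfb1m* (ENSMUSG00000036983, chr17:3563847-3608190) is its paralog, which methylates the small mitochondrial rRNA. Its FPKM was 17.29, 18.44 and 24.45 in IVM and 24.33, 26.06 and 18.66 in IVO. The groups overlapped, with IVM sample 3 among the IVO values and IVO sample 3 among the IVM values. The log2FC was 0.19 (SE 0.23, limma adjusted p = 0.586). After median-ratio scaling the groups no longer overlapped, with 15.1, 16.7 and 20.5 scaled FPKM in IVM and 25.4, 28.8 and 21.0 in IVO. The log2FC was then 0.50 (SE 0.21, limma adjusted p = 0.129), which did not pass the threshold.

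*Tefm* (ENSMUSG00000046909, chr11:80027498-80033839) encodes the elongation factor that keeps the polymerase on the template past the sites where it would stop and prime replication. Its FPKM was 0.92, 1.35 and 0.52 in IVM and 1.61, 0.94 and 0.52 in IVO, on 10 to 31 fragments, and the groups overlapped.

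The libraries carry no strand, so fragments from exons that 2 genes share on opposite strands cannot be told apart. *Tfb1m* shares 3107 exon bases with *Tiam2* (31.33 to 41.04 FPKM), *Twnk* 1264 with *Mrpl43* (0.17 to 0.90), *Polg* 1064 with *Fanci* (2.67 to 5.48), *Tfb2m* 531 with *Cnst* (10.34 to 24.95) and *Polg2* 509 with *Milr1* (0 to 0.05). *Ssbp1* shares 2405 with *Or9a7* (0 to 1.12) and *Tfb1m* another 369 with *1700102H20Rik* (1.56 to 4.60). How many fragments of a member came from such a neighbour was not tested. *Cnst* was at 13.23, 17.84 and 24.95 FPKM in IVM and 13.25, 14.74 and 10.34 in IVO, and its groups overlapped. *Tfam*, *Polrmt* and *Lrpprc* share no exon base with another listed gene.

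**Figure D2:**
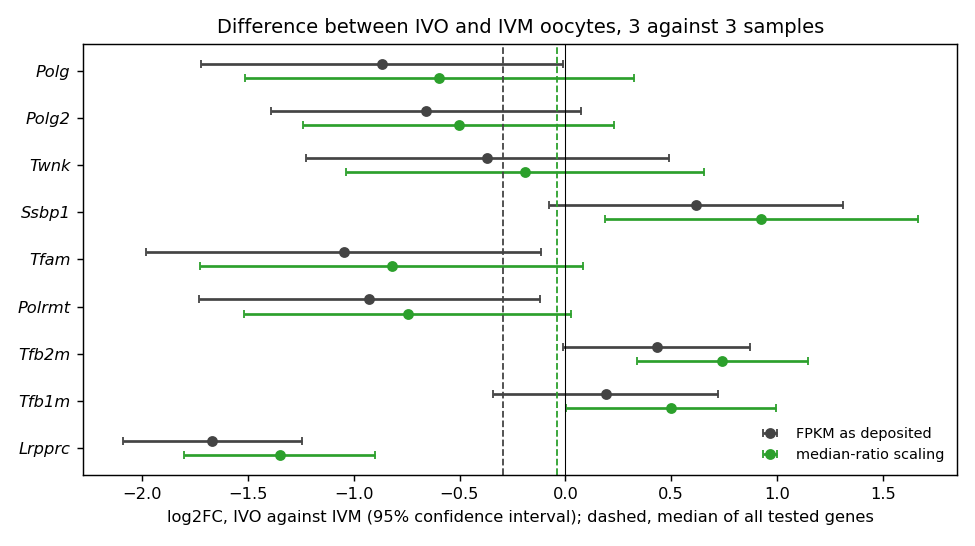
log2FC of the 9 tested members, IVO against IVM, with 95% confidence intervals for FPKM as deposited (grey) and after median-ratio scaling (green), and the medians of all tested genes as dashed lines at −0.30 and −0.04. *Lrpprc* lies farthest to the left under both scalings, and the estimates of *Ssbp1*, *Tfb2m* and *Tfb1m* are above 0 under both.

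FPKM is per length, so the levels of the members can be set side by side. *Lrpprc* was the highest in both groups, and its range did not meet that of the next gene. In IVM it was followed by *Tfb2m*, *Tfb1m* and *Ssbp1*, at means of 18.2 to 21.4 FPKM with overlapping ranges, and then, after a gap, by *Polg* (7.71), *Tfam* (4.54), *Polrmt* (2.29), *Twnk* (1.77), *Polg2* (1.503) and *Tefm* (0.93), each overlapping its neighbour. In IVO the order after *Lrpprc* was *Ssbp1* (29.7), *Tfb2m* (29.2), *Tfb1m* (23.0), *Polg* (3.89), *Tfam* (1.64), *Twnk* (1.31), *Tefm* (1.02), *Polrmt* (0.667) and *Polg2* (0.553). *Tfb2m* did not overlap *Tfb1m*, and *Tfb1m* did not overlap *Polg*. The 4 highest genes were *Lrpprc*, *Tfb2m*, *Tfb1m* and *Ssbp1* in both groups. Among the low ones *Polrmt* stood above *Twnk*, *Polg2* and *Tefm* in IVM and below *Twnk* and *Tefm* in IVO, but neighbours there did not differ beyond their spread.

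A ratio of 2 genes within a sample does not depend on how the library was scaled. Of 6 ratios, only that of *Tefm* to *Polrmt*, the elongation factor to its polymerase, kept the groups apart. It was 0.814, 0.619 and 0.146 in IVM and 2.68, 0.979 and 1.18 in IVO, so every IVO value was higher. The difference was 1.80 on the log2 scale (SE 0.89) with a two-sided exact permutation p = 0.1, the smallest that 3 against 3 samples allow, and 0.4 after adjustment over the 6 ratios. Both genes are at few fragments. The difference was 1.04 without IVM sample 3, whose ratio was the lowest, and 0.98 with a pseudocount of 1.

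The ratio of *Polg2* to *Polg*, the accessory to the catalytic subunit, varied little between samples, although *Polg2* rests on 7 to 51 fragments. With a pseudocount of 1 its log2 difference changed sign, to 0.21. As deposited the ratio was 0.214, 0.205 and 0.146 in IVM and 0.164, 0.144 and 0.133 in IVO, and the groups overlapped (log2 difference −0.34, SE 0.20, exact permutation p = 0.2, adjusted 0.4), with a pooled SD of 0.24 on the log2 scale. The ratio of *Tfb2m* to *Tfb1m* averaged 1.08 ± 0.156 over the IVM and 1.29 ± 0.225 over the IVO samples (SD, n = 3 each) (log2 difference 0.25, SE 0.19, exact permutation p = 0.2, adjusted 0.4). The ratios of *Twnk* to *Polg* and of *Tfam* to *Polrmt* spread widely in IVO (log2 differences 0.28, SE 1.13, and 0.20, SE 0.74; exact permutation p = 1 and 0.9). The former turned to −0.82 without IVO sample 1, and the latter to −0.26 without IVO sample 1 and −0.05 without IVO sample 3.

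*Slirp* encodes the partner with which LRPPRC forms a complex. Its FPKM was 8.32, 7.24 and 8.75 in IVM and 0.93, 1.31 and 3.15 in IVO, and it was called lower (log2FC −1.78, SE 0.32, limma adjusted p = 0.0092). The ratio of *Lrpprc* to *Slirp* was 19.0, 24.5 and 15.5 in IVM and 55.3, 34.1 and 15.6 in IVO, overlapping (log2 difference 0.68, SE 0.56, exact permutation p = 0.3, adjusted 0.45). The difference was 0.26 without IVO sample 1, 1.17 without IVO sample 3 and 0.11 with a pseudocount of 1. The *Slirp* values are uncertain, because 3050 of its exon bases are shared with *Snw1* on the other strand, which lay at 7205 to 8652 FPKM in IVM and 2710 to 4271 in IVO.

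**Figure D3:**
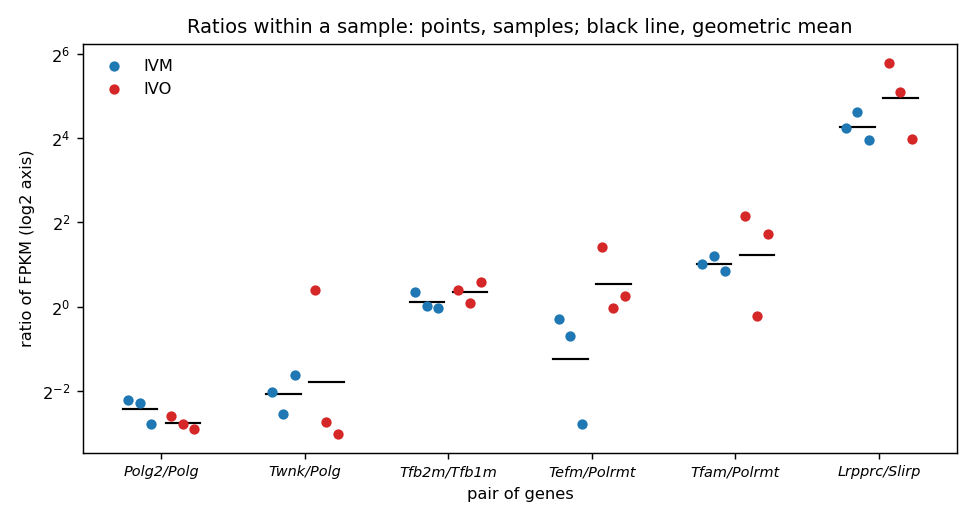
Ratio of the FPKM of 2 genes within each of the 3 IVM (blue) and 3 IVO (red) samples on a log2 axis, with the geometric mean of each group as a black line. The *Tefm* to *Polrmt* ratio is the only one whose groups do not overlap, and the *Twnk* to *Polg* ratio has 1 IVO sample far above the others.

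The other genes of the pathway were taken from 5 nuclear lists of 72 genes in all, of which 62 were tested. By the adjusted p 10 were lower and 4 higher in IVO, against 21.5% and 1.87% of all tested genes. Of them 8 and 3 were DEGs, against 17.9% and 0.606%. The share lower was thus no larger than that of all genes. Their median log2FC was −0.07 against −0.30 over all tested genes. After median-ratio scaling that median was 0.22. Without IVM sample 1 the DEGs lower were 5, and without IVO sample 1 or 2 the DEGs higher were 1. The lists are described by their genes and were not tested as sets. The counts of single lists below, as deposited, are read against the same shares. Those with median-ratio scaling are read against 13.2% lower and 7.14% higher of all tested genes by the adjusted p. Quantile normalization moved the DEGs over all genes from 3366 lower and 114 higher to 1580 lower and 1097 higher.

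Of 8 tested accessory replication genes, 2 were lower and 0 higher. *Rnaseh1*, which removes RNA primers, fell from 53.8 ± 5.59 to 23.8 ± 3.55 FPKM (SD, n = 3 each; log2FC −1.15, limma adjusted p = 0.00775). *Fen1*, a flap endonuclease that also works in the nucleus, fell from 1251 ± 233 to 541 ± 138 FPKM (log2FC −1.22, limma adjusted p = 0.0118), and with median-ratio scaling its limma adjusted p was 0.0571 and without IVM sample 1 0.0503. *Top1mt*, the mitochondrial topoisomerase, named after its values were seen, was at 0 in all samples.

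Of 16 tested genes for the supply of deoxynucleotides, 4 were lower and 1 higher. The counts moved with the scaling, as those over all genes did, to 2 lower and 4 higher with median-ratio scaling and 2 and 7 with quantile normalization. *Abat*, a transaminase with a role in mitochondrial nucleoside salvage, was at 57.33, 52.77 and 52.16 FPKM in IVM and 14.82, 3.61 and 16.22 in IVO (log2FC −2.35, limma adjusted p = 0.0150), but without any 1 of the IVM samples its limma adjusted p was 0.0562 to 0.0628. *Nme4*, a mitochondrial nucleoside diphosphate kinase, was at 40.44, 28.92 and 31.69 FPKM in IVM and 11.41, 6.94 and 9.04 in IVO (log2FC −1.79, limma adjusted p = 0.0038). *Sucla2*, a succinate-CoA ligase subunit needed to maintain mitochondrial DNA, was at 22.99, 19.26 and 22.39 FPKM in IVM and 72.24, 65.47 and 58.45 in IVO (log2FC 1.56, limma adjusted p = 0.0023). The first pair thus fell and *Sucla2* rose beyond the spread of the samples. *Tk2* (log2FC −0.96) and *Tyms* (log2FC −0.81), which make thymidylate and are named after their values were seen, were the other two lower, and with median-ratio scaling their limma adjusted p was 0.0545 and 0.17.

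Among 10 tested genes for termination and nucleoids, 0 passed the adjusted p in either direction by limma, and 0 had an unadjusted p under 0.05. Their log2FC ran from −0.52 to 0.62. With median-ratio scaling 0 passed, and with quantile normalization 3 were higher. Of 5 tested nuclear regulators, 1 was lower, the coactivator *Pprc1*, from 11.5 ± 1.75 to 3.22 ± 1.78 FPKM (SD, n = 3 each; log2FC −1.64, limma adjusted p = 0.0136), and without IVM sample 1 its limma adjusted p was 0.0606. Named after their values were seen, *Nrf1* was at a log2FC of −0.32 (limma adjusted p = 0.420) and *Gabpa*, the DNA-binding subunit of GABP, at −1.02 (SE 1.04, limma adjusted p = 0.528). The *Gabpa* samples spread widely and overlapped, at 0.3, 2.66 and 14 FPKM in IVM and 0.19, 0 and 6.21 in IVO. *Gabpa* shares 1995 exon bases with *Atp5pf* on the other strand, at 22.26 to 40.11 FPKM in IVM and 2.07 to 7.74 in IVO. How many of its fragments came from *Atp5pf* was not tested. *Ppargc1a* and *Esrra*, also named after their values were seen, were near 0, with group means of at most 0.0833 and 0.01 FPKM.

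Of 23 tested genes that process mitochondrial RNA, 3 were lower and 3 higher, and with quantile normalization 3 and 6. *Trub2*, a pseudouridine synthase, was at 38.41, 26.27 and 6.13 FPKM in IVM and 0.24, 0.11 and 0.16 in IVO (log2FC −4.08, limma adjusted p = 0.0047). Its IVM samples spread widely, yet all lay far above IVO. *Mtpap*, the mitochondrial poly(A) polymerase, was at 53.74, 51.95 and 52.53 FPKM in IVM and 115.79, 123.07 and 90.42 in IVO (log2FC 1.03, limma adjusted p = 0.0091). *Fastkd2*, a mitochondrial RNA-binding protein, was at 1.81, 5.38 and 5.13 FPKM in IVM and 25.81, 13.83 and 7.62 in IVO (log2FC 1.65, limma adjusted p = 0.0482). Without the filter on low values the limma adjusted p of *Fastkd2* was 0.109, and without any 1 sample other than IVO sample 3 it was 0.0884 to 0.144. *Slirp* was the second lower gene. *Tbrg4* (log2FC −1.42) and *Ptcd3* (log2FC 0.77), named after their values were seen, were the remaining lower and higher ones. *Ptcd3* lost the call without any 1 of IVM samples 1 and 2 and IVO samples 1 and 2 (limma adjusted p 0.0590 to 0.0982).

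The products of the machinery, the 13 mRNAs and 2 rRNAs of mitochondrial DNA, were all tested. By limma 4 were higher in IVO and 0 lower, and 0 were lower at an unadjusted p under 0.05, where 8 were higher. Of all tested genes 1.87% were higher by the adjusted p. With median-ratio scaling the count here was 7, against 7.14% of all tested genes. With the length trend removed it was 8, where the DEGs higher over all genes went from 114 to 557. Their median log2FC was 0.61, and 14 of the 15 were above 0, or all 15 with median-ratio scaling. *mt-Atp6* was at 6757, 9871 and 8392 FPKM in IVM and 19118, 21542 and 15516 in IVO (log2FC 1.17, limma adjusted p = 0.0060). *mt-Atp8* had a log2FC of 1.21 (limma adjusted p = 0.0091), but at 204 bases it is shorter than the mean fragment of every library and shares 43 bases with *mt-Atp6*, so its FPKM is uncertain. *mt-Nd4* (log2FC 0.94) and *mt-Cytb* (log2FC 0.91), named after their values were seen, were the other two, and *mt-Nd4* passed in 12 of 24 alternatives. No mitochondrial transcript was called lower in the oocytes with less *Lrpprc* mRNA, and no test ties these measurements. Whether the mitochondrial FPKM reflect poly(A) tail length or the amount of RNA was not tested.

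**Figure D4:**
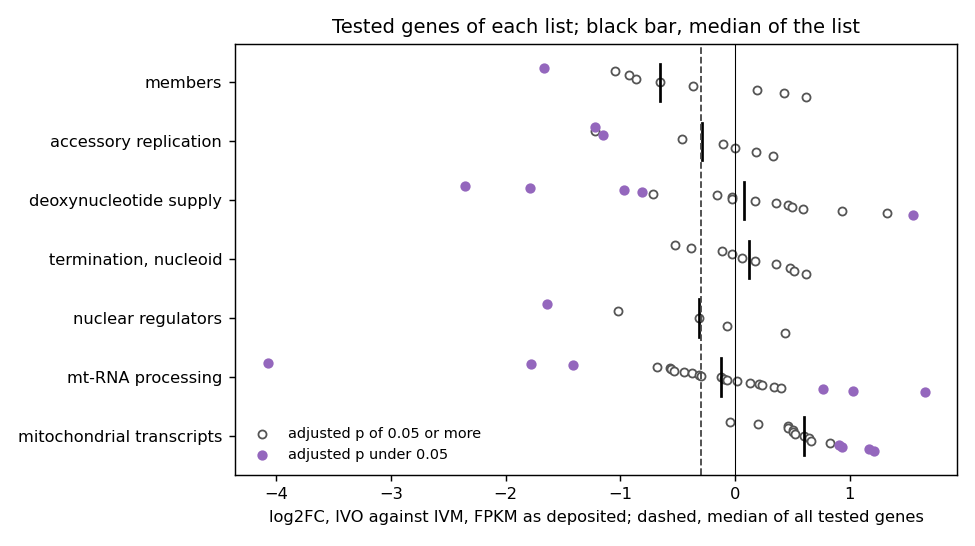
log2FC of each tested gene, IVO against IVM with FPKM as deposited, by list, with filled points for a limma adjusted p under 0.05, a black bar for the median of each list and a dashed line for the median of all tested genes at −0.30. *Lrpprc* is the only filled point among the members, and the mitochondrial transcripts lie mostly above 0, with 4 filled.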

How the data were processed

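RNA-seq of 6 pools was analysed. Full-length cDNA was made with SMART-Seq v4 and libraries with Nextera XT, without strand. The authors aligned the reads to GRCm39 and deposited 1 FPKM value per gene and sample. The submitters' processing notes name HISAT2 2.1.0, RSEM 1.3.3 and DESeq2 1.24.0. FPKM are not counts, so limma 3.58.1 (lmFit, eBayes with trend; R 4.3.3) was run on log2(FPKM + 1) of the 18818 genes averaging 1 FPKM or more, with group alone in the model and Benjamini-Hochberg adjustment over all of them. Tests were two-sided. Deposited group means equalled the sample means within rounding and were not used.

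Depth and fragment length were inferred from steps between low FPKM values of 10904 genes of 500 to 2000 bases. They were chosen to bring the values of up to 5.5 fragments near whole numbers. Of the 734 to 927 such values per library, 80.1% to 81.6% were whole within 0.15, which is no independent check. Intervals cover counting error only. Coordinates and exons are from GENCODE M39.

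The members, lists and tests were chosen with earlier results of these data known. The text names all members, both genes of each ratio and, from each list, up to 2 genes with the most negative and 2 with the most positive log2FC at an adjusted p under 0.05, with others marked. Alternatives were the pseudocount, the filter on low values, median-ratio, same-sum and quantile scaling, no trend, a replicate block, a lowess length correction (span 0.3), Ensembl genes only and leaving out each sample. The stability of single pathway genes was computed after seeing the data. Combinations of median-ratio scaling with the block or with left-out samples were added after seeing the data. Scripts were tested on simulated data. Python 3.11.15, pandas 2.3.3, numpy 2.4.6, scipy 1.17.1 and matplotlib 3.10.9 were used.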

Additional observations from a re-analysis of the deposited data

How the results depend on the processing

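*Lrpprc* was lower in IVO under all 24 alternatives, with a log2FC of −1.77 to −1.15 and a limma adjusted p of 0.0010 to 0.0425. *Tfb2m* was above 0 in all 24 and passed in 4 (limma adjusted p 0.0162 to 0.338 over all). *Polrmt* passed only without IVM replicate 1, and *Ssbp1* only with quantile normalization (limma adjusted p 0.0409 against 0.177). *Twnk* turned to 0.0827 with quantile normalization and to 0.0303 with median-ratio scaling without IVO replicate 2. *Tfam*, *Polg*, *Polg2* and *Tfb1m* kept their direction and passed in none of the alternatives run. Quantile normalization gave 1 member as a DEG higher, and by the adjusted p members higher numbered 2 with it, 1 with median-ratio scaling and 1 with the length trend removed. The median log2FC of the members was −1.03 with a pseudocount of 0.1, −0.12 with quantile normalization and 0.19 at a mean FPKM of at least 5, where fewer members were tested. Leaving out 1 sample gave 1 to 2 members as DEGs lower (2 without IVM replicate 1), 1 to 2 lower and 0 to 1 higher by the adjusted p.

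In the nuclear lists, DEGs higher numbered 5 with median-ratio scaling, 5 with the same sum and 9 with quantile normalization, and DEGs lower 5 with quantile normalization. Leaving out 1 sample gave, over both scalings, 2 to 8 lower and 1 to 5 higher (with median-ratio scaling, 3 lower without IVM replicate 3). With a pseudocount of 1 the log2 ratio difference was 0.21 for *Polg2*/*Polg*, −0.12 for *Tfam*/*Polrmt*, 0.11 for *Lrpprc*/*Slirp* and 0.98 for *Tefm*/*Polrmt*. Leaving out 1 sample gave a range for *Tfam*/*Polrmt* from −0.26 to 0.92, *Twnk*/*Polg* from −0.82 to 0.90, *Lrpprc*/*Slirp* from 0.26 to 1.17 and *Tefm*/*Polrmt* from 1.04 to 2.28. The named pathway genes that passed the adjusted p as deposited kept their direction in all alternatives run. Those that did not pass were not followed in this way, and *Nrf1* among them turned to 0.18 with quantile normalization. *Nme4*, *Sucla2*, *Mtpap*, *Trub2*, *mt-Atp6* and *mt-Atp8* passed the adjusted p in all 24, *mt-Cytb* in 23, *Rnaseh1* and *Ptcd3* in 17, *Pprc1* in 16, *Abat* and *Fen1* in 15, *mt-Nd4* in 12, *Fastkd2* in 8 and *Tyms* in 6. *Slirp* and *Tbrg4* passed in 16 of 23 and *Tk2* in 4 of 23. Except where stated, the cause was not tested. DEGs over all genes, 3366 lower and 114 higher, were 2130 and 385 with median-ratio scaling, 2131 and 397 with the same sum, 1580 and 1097 with quantile normalization, 1511 and 557 with the length trend removed, and 741 and 188 with that and the replicate block.

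Replicate numbers did not pair the samples: deviations of same-numbered samples correlated at −0.06, −0.02 and −0.11. The replicate block left *Lrpprc* at a limma adjusted p of 0.0131 (log2FC −1.67) and the DEGs at 2899 lower and 92 higher. *Tfb2m* was at a limma adjusted p of 0.0906 with the block and median-ratio scaling and 0.117 with the block and the length trend removed. In the nuclear lists DEGs lower were 2 with the block and the length trend removed, and 2 with the block and median-ratio scaling. Depth limits *Polg2*, *Tefm* and *Polrmt*, which had as few as 7, 10 and 28 fragments.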
